A study of Mus musculus with 8 samples.

Results

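The genes described here encode the machinery that divides and joins mitochondria. They are the 10 genes Dnm1l, Fis1, Mff, Mief1, Mief2, Mfn1, Mfn2, Opa1, Oma1 and Mul1, chosen by name for their known roles, out of 22065 named genes in the count table. All 10 were measured and passed the filter on low counts. RNA was sequenced from hematopoietic stem cells (HSCs) of C57BL/6 mice aged 8 to 10 weeks, taken 1 week after Poly:IC, an RNA mimic that switches on interferon-responsive promoters. The Mitol knockout group (Mitol KO, n = 4 libraries) came from Mitol Flox/Flox mice carrying MX1-cre. The control group (n = 4 libraries) came from Mitol Flox/Flox littermates that lacked MX1-cre and received the same Poly:IC. MX1-cre acts in blood cells and in other cells that respond to interferon, so the deletion was not limited to HSCs. Each library was made from 100 cells sorted as Lineage- CD150+ CD48- EPCR+. The study also lists CD117, encoded by Kit, among the markers that define its long-term HSCs. The labels do not say that the libraries of a group came from separate mice, so p-values measure the spread between these samples, which may be technical.

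Mitochondria divide when DRP1, a cytosolic GTPase, is recruited to the outer membrane, forms rings there and constricts the organelle. They fuse when mitofusins join the outer membranes and OPA1 joins the inner membranes. MITOL, encoded by Mitol (gene symbol Marchf5), is a ubiquitin ligase of the outer membrane whose known substrates include DRP1, MFN1, MFN2 and the DRP1 receptor MiD49. The balance of division and fusion is known to shape mitochondrial segregation and respiration in HSCs. Ubiquitin ligases act on protein, whereas the counts measured mRNA.

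The total count per library was 7214935 to 12398138. Marchf5 read 276, 232, 308 and 281 normalized counts in the Mitol KO libraries and 299, 312, 333 and 262 in the control libraries, so the targeted gene overlapped between the groups. Which exons the counted Marchf5 reads came from cannot be seen in counts per gene. The study's methods report a PCR check of the Mitol deletion in the knockout mice, and the labels of the groups were taken as given. Among sort and HSC markers, 2 of 6 genes (Kit and Hlf) fell and the list summed to 16714 to 19834 normalized counts in Mitol KO and 24386 to 29864 in control libraries, a sum in which these 2 genes weigh most. Slamf1, which encodes the gate marker CD150, was at 412 to 669 in Mitol KO and 299 to 410 in control libraries (log2 fold change 0.56; edgeR, adjusted p = 0.0501). Ly6a had a log2 fold change of 0.76 (edgeR, adjusted p = 0.0605). Procr, which encodes the gate marker EPCR, and Mecom had lower point estimates in Mitol KO (log2 fold change -0.34 and -0.13; edgeR, adjusted p = 0.179 and 0.389). Cd48, absent by design from the sort gate, rose from 4.49 to 21.7 in control to 22.2 to 63.4 in Mitol KO libraries (edgeR, adjusted p = 0.0450). Of 8 red cell genes, 1 (Hbb-bt) rose and the list summed to 968 to 4892 in Mitol KO and 370 to 795 in control libraries. Neutrophil genes, 7 of 10 of them in the table, summed to 16.9 to 36.6 in Mitol KO and 50.1 to 88.9 in control libraries. S100a9 was at 0 in all 4 Mitol KO and at 2.64 to 21.3 in control libraries. S100a8 was at 0 to 1.57 in Mitol KO and at 0 to 51.2 in control libraries. By group mean, S100a8 and S100a9 made most of the gap between the sums. Elane, Mpo and Camp also had lower means in Mitol KO, whereas Ltf had a higher mean (5.26 against 2.06 in control). Only Ngp had counts enough to be tested, with means of 10.9 in Mitol KO and 10.6 in control libraries and an adjusted p of 0.999 (edgeR). Of 8 B-lineage, 7 T cell, 8 mast cell and basophil and 6 macrophage genes, 4, 3, 1 and 6 were in the table and 1, 2, 1 and 5 were tested, of which 0 passed. In bulk RNA, fewer cells of a type and less RNA per cell cannot be told apart.

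None of the 10 fission and fusion genes passed the test for a difference between Mitol KO and control HSCs (edgeR quasi-likelihood test, adjusted p between 0.806 and 0.995). Over all 16444 genes tested, 8.43% passed at an adjusted p under 0.05, with 4.68% higher and 3.75% lower in Mitol KO. At an unadjusted p under 0.05 the count was also 0 of 10, against 4336 of all genes tested, and DESeq2 and limma-voom called 0 of 10 as well. The normalized counts of the groups overlapped for each of the 10, whereas they did not overlap for 15.4% of all genes tested. By point estimate 4 members were higher and 6 lower. Their median log2 fold change was -0.012 and their median absolute log2 fold change was 0.036, beside -0.020 and 0.25 over all genes tested. These backgrounds were not matched for count.

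DRP1 is the GTPase that performs the scission. Its gene, Dnm1l (chromosome 16, 16128677 to 16176904, minus strand, GRCm39), gave normalized counts of 672, 673, 661 and 583 in Mitol KO and of 629, 600, 623 and 642 in control HSCs. The means were 647 ± 43.3 and 623 ± 17.5 (SD, n = 4 each), for a log2 fold change of 0.036 ± 0.092 (SE; edgeR, adjusted p = 0.841). 3 of the 4 Mitol KO libraries lay above all 4 controls and replicate 4 lay below them all, and the exact 2-sided permutation test over the 70 arrangements of the libraries gave p = 0.343, where the smallest it can give is 0.0286. The 95% interval of the fold change ran from 0.893 to 1.18. Of the members, Dnm1l varied least between libraries of a group, with an SD of 0.076 on the log2 CPM scale, where CPM is the count scaled to a common library total.

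DRP1 needs receptors on the outer membrane. Mff, which encodes its main receptor in mammals (chromosome 1, 82702582 to 82730684), gave 576, 731, 551 and 619 normalized counts in Mitol KO and 530, 648, 676 and 683 in control HSCs. The highest and the lowest library were thus a Mitol KO and a control library, and the log2 fold change was -0.056 ± 0.119 (SE; edgeR, adjusted p = 0.806). Fis1, which encodes a small tail-anchored adaptor of fission (chromosome 5, 136982101 to 136995089), gave 319, 401, 415 and 420 in Mitol KO and 450, 365, 379 and 336 in control HSCs. Here replicate 1 was the lowest Mitol KO and the highest control library. The log2 fold change of Fis1 was 0.0070 ± 0.132 (SE; edgeR, adjusted p = 0.982).

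Mief1 and Mief2 encode MiD51 and MiD49, paralogous receptors that hold DRP1 on the membrane. Mief1 (chromosome 15, 80118149 to 80138322) gave 911, 922, 1051 and 809 normalized counts in Mitol KO and 880, 1027, 881 and 918 in control HSCs. Mief2 (chromosome 11, 60618117 to 60623778), whose product is a known MITOL substrate, gave 117, 140, 97.9 and 123 in Mitol KO and 171, 124, 64.1 and 132 in control HSCs. All 4 Mitol KO values of Mief2 lay between the lowest and the highest control. Its log2 fold change was -0.054 ± 0.258 (SE; edgeR, adjusted p = 0.919), with an interval from 0.653-fold to 1.42-fold. Mief2 was the least precise of the 10, with an SD of 0.443 on the log2 CPM scale. For Mief1 the log2 fold change was -0.022 ± 0.102 (SE; edgeR, adjusted p = 0.916).

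The mitofusins are GTPases that tether and join outer membranes, and MFN2 also sits at contacts with the endoplasmic reticulum. Mfn1 (chromosome 3, 32583599 to 32645888) gave 319, 347, 388 and 388 normalized counts in Mitol KO and 311, 373, 365 and 374 in control HSCs. Mfn2 (chromosome 4, 147955508 to 147989585, minus strand) gave 802, 946, 857 and 788 in Mitol KO and 822, 836, 856 and 755 in control HSCs. Neither pair of groups separated. The log2 fold change of Mfn1 was -0.0018 ± 0.119 (SE; edgeR, adjusted p = 0.995), the closest to 0 of the members. That of Mfn2 was 0.035 ± 0.092 (SE; edgeR, adjusted p = 0.845).

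OPA1 is the dynamin-like GTPase that fuses the inner membranes and holds cristae together, and OMA1 is the stress-activated protease that cleaves it. Opa1 (chromosome 16, 29398108 to 29473858) gave 764, 746, 616 and 816 normalized counts in Mitol KO and 724, 728, 643 and 886 in control HSCs. In both groups replicate 4 was the highest library and replicate 3 the lowest. Oma1 (chromosome 4, 103170737 to 103229065) gave 185, 157, 177 and 239 in Mitol KO and 236, 161, 165 and 234 in control HSCs. It had the largest point estimate of the members, a log2 fold change of -0.088 ± 0.188 (SE; edgeR, adjusted p = 0.808), and its interval ran from 0.709-fold to 1.25-fold. The log2 fold change of Opa1 was -0.040 ± 0.121 (SE; edgeR, adjusted p = 0.869).

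MUL1 is, like MITOL, a ligase in the outer membrane, and it is known to act on DRP1 and on mitofusins. Its gene Mul1 (chromosome 4, 138161965 to 138170337) gave 379, 344, 491 and 400 normalized counts in Mitol KO and 388, 379, 431 and 388 in control HSCs. Replicate 3 was the highest library of each group and the Mitol KO libraries spanned the controls. The log2 fold change was 0.0076 ± 0.128 (SE; edgeR, adjusted p = 0.980).

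**Figure D1:**
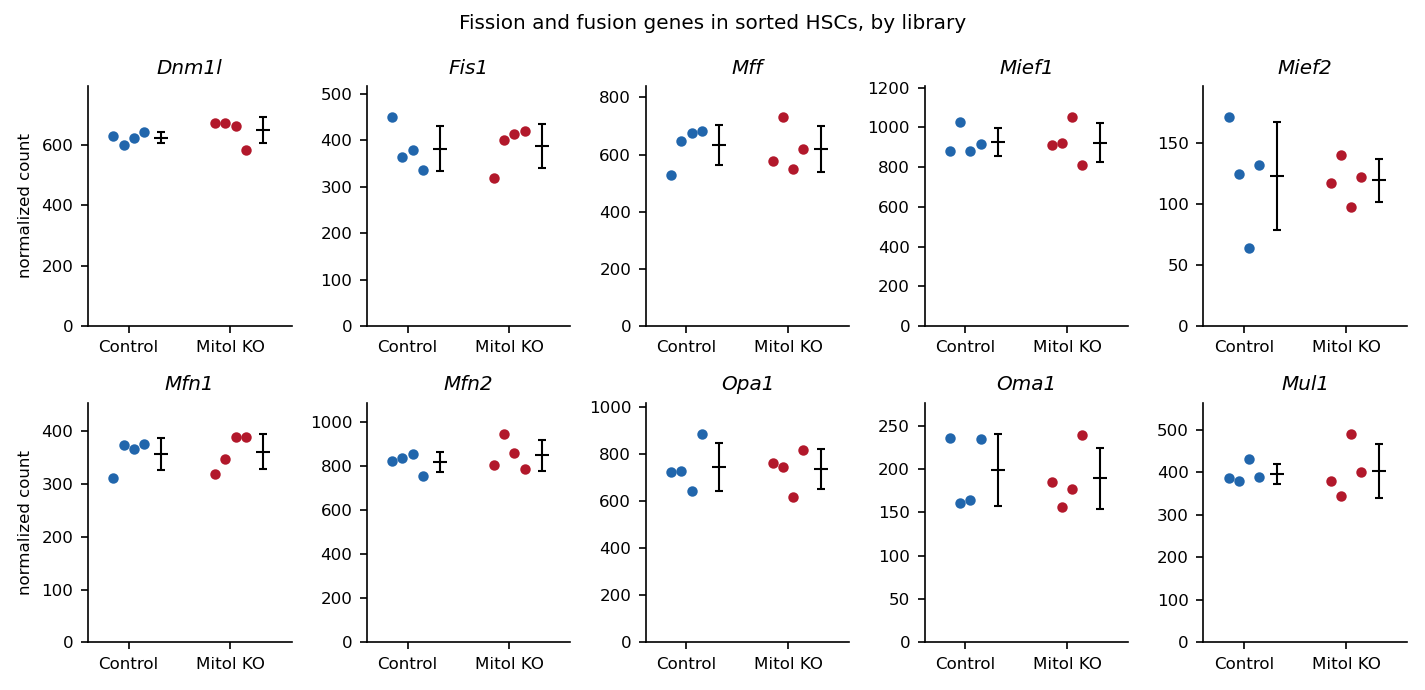
Normalized counts (counts divided by a size factor per library, y axis from 0) of the 10 genes in 4 control (blue) and 4 Mitol KO (red) libraries, with the mean and SD of each group in black. The groups overlap for each gene, and Mief2 shows the widest relative spread, from 64.1 to 171 in the controls.

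A p that misses the threshold does not by itself bound a change, so the intervals were read as well. The 95% interval lay within 1.3-fold in either direction for 8 of 10 members and within 1.5-fold for 9 of 10, limits chosen after the values were seen. Over all genes tested, 16.8% and 39.5% of intervals lay within these limits. Oma1 lay outside the narrower limit and Mief2 outside both. The members' median SD within a group was 0.171 on the log2 CPM scale, beside 0.262 over all genes tested. All genes tested include genes of lower count than any member, and neither comparison was matched for count.

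The members' levels were next set side by side as CPM per kilobase of exon, since raw counts grow with gene length. In control HSCs the order from high to low was Fis1 at 13.3 ± 1.29, Mief1 at 10.0 ± 0.899, Dnm1l at 9.30 ± 0.484, Opa1 at 8.77 ± 1.48 and Mfn2 at 8.41 ± 0.291. Below these stood Mff at 6.24 ± 0.849, Mul1 at 5.90 ± 0.352, Mief2 at 2.98 ± 1.05, Mfn1 at 2.88 ± 0.318 and Oma1 at 1.93 ± 0.426 (all SD, n = 4). Fis1 did not overlap Mief1 in the control libraries, and the same held of Mfn2 and Mff, of Mul1 and Mief2, and of Mfn1 and Oma1. The other neighbours in the order overlapped between libraries. In Mitol KO HSCs the order was the same except that Mfn2 stood above Opa1 and Mfn1 above Mief2, both overlapping pairs.

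Lengths came from all annotated exons of a gene. With the exons of the longest transcript alone, Fis1 stayed first, whereas Mff moved from place 6 to place 2, Oma1 from place 10 to place 8 and Mief2 from place 8 to place 10. The level of Oma1 was then 5.01, beside 1.93 with all exons. The ratio of Mfn1 to Mfn2 per length was 0.312, 0.288, 0.355 and 0.386 in Mitol KO and 0.297, 0.350, 0.334 and 0.389 in control HSCs, so Mfn2 was the more abundant mitofusin mRNA in each library. The ratio of Mief1 to Mief2 was 3.54 ± 0.875 in Mitol KO and 3.81 ± 1.66 in control HSCs, and that of Dnm1l to Opa1 was 1.14 ± 0.186 and 1.08 ± 0.129 (SD, n = 4 each). The groups overlapped in each of the 3 ratios.

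**Figure D2:**
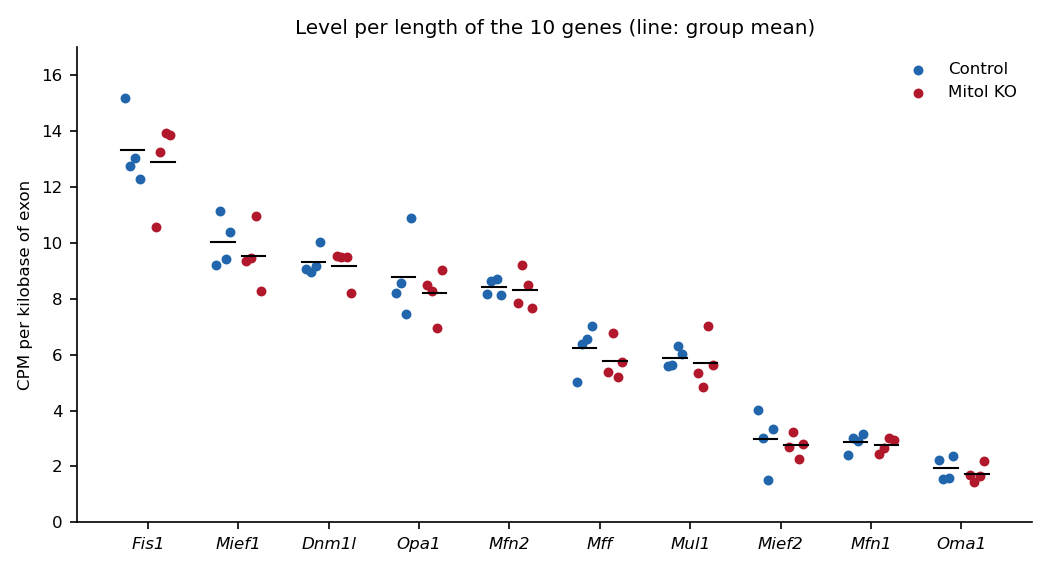
Level of each gene in CPM per kilobase of exon (y axis from 0), ordered by the control mean, with a point per library and a line at the group mean. Fis1 stands highest at 13.3 and Oma1 lowest at 1.93 in control HSCs with lengths from all exons, and the Mitol KO (red) and control (blue) points overlap at each gene.

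Depending on how reads were counted, some of these counts can hold reads of a neighbour or lack reads that fall on shared bases. In the annotation, 8 of the 10 members share exon bases with another gene, 5 of them with a protein-coding gene, and the strand setting of the counting is not given in the sources used here. The longest shared stretches join Mfn1 with Gnb4 (4740 bases), Dnm1l with Yars2 (3231 bases), Mfn2 with Fv1 (1245 bases) and Mief2 with Flii (911 bases), each pair on opposite strands. None of these 4 neighbours passed the test, with log2 fold changes of -0.078, 0.15, -0.34 and 0.12 in that order (edgeR, adjusted p = 0.826, 0.625, 0.380 and 0.395). Levels of these members are uncertain to that extent. Opa1 and Mul1 share no exon bases with another gene.

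The promoters of the members were read for sequence that several of them share, in RefSeq windows of 250 bases before to 50 bases after each start (GRCm38.p6), which matched 10 of 10 members. The letters CCGGAAG, the core bound by ETS-family factors, lay on either strand in a window of 5 of the 10 (Dnm1l, Fis1, Mfn1, Mief1 and Mul1), beside 9.93% of all genes with a window. The motif was picked after the members' windows had been read, so the share carries no test. One site per gene is printed, as the sequence these 5 genes have in common, with the motif or its reverse complement in capitals.
Mfn1, chr3:32529427-32529455, 44 bases before the start: gatccgaagcgCCGGAAGtagccgcccct
Mul1, chr4:138434643-138434671, 18 bases before the start: cccgtcctccaCTTCCGGtttttacgtca
Fis1, chr5:136953246-136953274, 18 bases before the start: ggaggcaccacCCGGAAGttcaggcttcc
Mief1, chr15:80234004-80234032, 65 bases before the start: ggaggggccgaCCGGAAGtgcttccgcct
Dnm1l, chr16:16358546-16358574 on the minus strand, 13 bases after the start: gctgtcgcttcCTTCCGGccgctgaggac
The first 4 are on the plus strand, and each is printed 5′ to 3′ along the gene. Of 4 other motifs searched on both strands, TGACGT, the short core of the cAMP response element, lay in windows of Mfn2, Mief1 and Mul1 (3 of 10, beside 8.37% of all genes) and CATGCGC in that of Opa1 (1 of 10, beside 4.41%). AAGGTCA and GATGGCG lay in none (beside 5.38% and 4.04%), which says only that these letters are not in these windows.

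Genes that act on or beside the machinery were read from 7 lists written by role. Earlier results of these data were known when the lists were written, so their shares carry no test. The lists hold 66 genes, of which 64 were tested. Of these, 7 rose and 3 fell in Mitol KO (15.6%, beside the 8.43% of all genes tested). A point estimate above 0 was seen for 47 of the 64, beside 7841 of all 16444 genes tested. The median log2 fold change was 0.15 in the lists and -0.020 over all genes tested. The latter was -0.082 with upper quartile factors and -0.075 with library totals, and signs in the lists were not counted again there. The count of calls moved with single libraries: it was 2 to 5 without control replicate 2 or 4 or Mitol KO replicate 1, 2 or 3, and 17 without Mitol KO replicate 4. Over all genes the calls moved likewise, from 1386 to between 359 and 565 and to 2501. The related genes that passed kept their direction in each of these fits, with log2 fold changes such as -0.56 to -0.41 for Mtfr1l and 0.55 to 0.70 for Chchd3. The lower Kit and Hlf and the higher Cd48 and Hbb-bt described above moved with the same group, and their part in these calls was not tested.

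Among 9 tested genes of other fission factors, 0 rose and 2 fell. Mtfr1l, which encodes a mitochondrial protein of the MTFR family, gave 744, 750, 797 and 700 normalized counts in Mitol KO and 1071, 1000, 886 and 1188 in control HSCs, without overlap. Its log2 fold change was -0.49 ± 0.104 (SE; edgeR, adjusted p = 0.0195). Inf2, a formin that polymerizes actin at sites of fission, gave 1958, 1984, 1789 and 2075 in Mitol KO and 2404, 2429, 2356 and 2734 in control HSCs, also without overlap (log2 fold change -0.37 ± 0.083, SE; edgeR, adjusted p = 0.0241). They passed in 4 and 3 of the 8 fits that left out a library. Among 6 genes listed as other fusion factors, Opa3, an inner membrane protein mutated in optic atrophy, rose (log2 fold change 0.51 ± 0.138, SE; edgeR, adjusted p = 0.0419), from 329 to 483 in control to 556 to 673 in Mitol KO libraries. Its place in that list does not show that it promotes fusion. Pld6, the mitochondrial phospholipase MitoPLD, fell (log2 fold change -0.61 ± 0.172, SE; edgeR, adjusted p = 0.0472), from 145 to 195 in control to 102 to 143 in Mitol KO libraries. Opa3 passed in 3 and Pld6 in 1 of the 8 fits that left out a library. With other processing, Pld6 missed the threshold with the DESeq2 size factors, without a filter and with limma-voom (adjusted p = 0.0514, 0.0696 and 0.0542), and Opa3 with upper quartile factors and with library totals (edgeR, adjusted p = 0.0578 and 0.0507).

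None of 7 proteases and scaffolds of OPA1 in the inner membrane passed. The lowest p belonged to Phb2, a prohibitin that stabilizes OPA1 (log2 fold change 0.54 ± 0.155, SE; edgeR, adjusted p = 0.0527), with 1433, 1567, 1293 and 990 normalized counts in Mitol KO and 1138, 898, 855 and 709 in control HSCs. The next was Spg7, a subunit of the m-AAA protease (log2 fold change 0.28 ± 0.111, SE; edgeR, adjusted p = 0.138). Phb2 passed in 2 of the 8 fits that left out a library and in 5 of 8 other alternatives (adjusted p = 0.0134 with DESeq2 and 0.0487 with limma-voom), so its call depends on the processing. Of 9 genes of MICOS, the complex that forms cristae junctions, and its partners, Chchd3, a MICOS subunit, rose. It gave 506, 537, 474 and 424 in Mitol KO and 367, 276, 335 and 280 in control HSCs, without overlap (log2 fold change 0.61 ± 0.127, SE; edgeR, adjusted p = 0.0183). Chchd6, its paralog, missed the threshold at a log2 fold change of 0.61 ± 0.186 (SE; edgeR, adjusted p = 0.0622). Chchd3 passed in 5 of the 8 fits that left out a library and Chchd6 in 1. Chchd6 also passed with DESeq2 and with the replicate block in edgeR (adjusted p = 0.0207 and 0.0230).

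Of 20 tested kinases, phosphatases and mitotic regulators of DRP1 or MFF, 4 rose and 0 fell. Pim1, a kinase known to act on DRP1 and a target of cytokine signalling, gave 2759, 2400, 3431 and 4111 normalized counts in Mitol KO and 1635, 1796, 1721 and 1244 in control HSCs. Every Mitol KO library lay above every control, and the log2 fold change was 0.97 ± 0.162 (SE; edgeR, adjusted p = 0.00836). Pim1 was past the threshold without each of the 8 libraries in turn. CDK1 with cyclin B1 phosphorylates DRP1 in mitosis, and Aurora A acts upstream in the same step. Cdk1 gave 899, 952, 682 and 456 in Mitol KO and 276, 265, 516 and 335 in control HSCs, with replicate 4 of Mitol KO below replicate 3 of control. Ccnb1 gave 184, 287, 174 and 159 in Mitol KO and 34.3, 21.3, 122 and 84.4 in control HSCs, without overlap. Aurka gave 266, 301, 320 and 218 in Mitol KO and 92.3, 41.5, 158 and 116 in control HSCs, again without overlap. The log2 fold changes were 1.08 ± 0.243 for Cdk1, 1.57 ± 0.414 for Ccnb1 and 1.41 ± 0.299 for Aurka (SE; edgeR, adjusted p = 0.0236, 0.0392 and 0.0195). They passed in 4, 2 and 6 of the 8 fits that left out a library. These genes also serve the cell cycle and growth signalling at large, and the counts do not show which of their substrates were acted on.

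None of the 7 ubiquitin and SUMO enzymes reported here that act on the machinery passed. Vcp, the segregase that extracts ubiquitinated mitofusins, had a log2 fold change of 0.23 ± 0.102 (SE; edgeR, adjusted p = 0.167). Huwe1, a large ligase known to act on MFN2, had a log2 fold change of 0.14 ± 0.075 (SE; edgeR, adjusted p = 0.268). Of 6 transport adaptors, Kif5b, the kinesin that carries mitochondria along microtubules, rose at 732, 683, 667 and 691 in Mitol KO and 506, 494, 520 and 489 in control HSCs, without overlap. Its log2 fold change was 0.45 ± 0.088 (SE; edgeR, adjusted p = 0.0156), and it passed without 7 of the 8 libraries in turn. Myo19, the myosin of mitochondria, had a log2 fold change of 0.72 ± 0.277 (SE; edgeR, adjusted p = 0.123), and it passed with the replicate block alone among the other alternatives (edgeR, adjusted p = 0.0299).

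**Figure D3:**
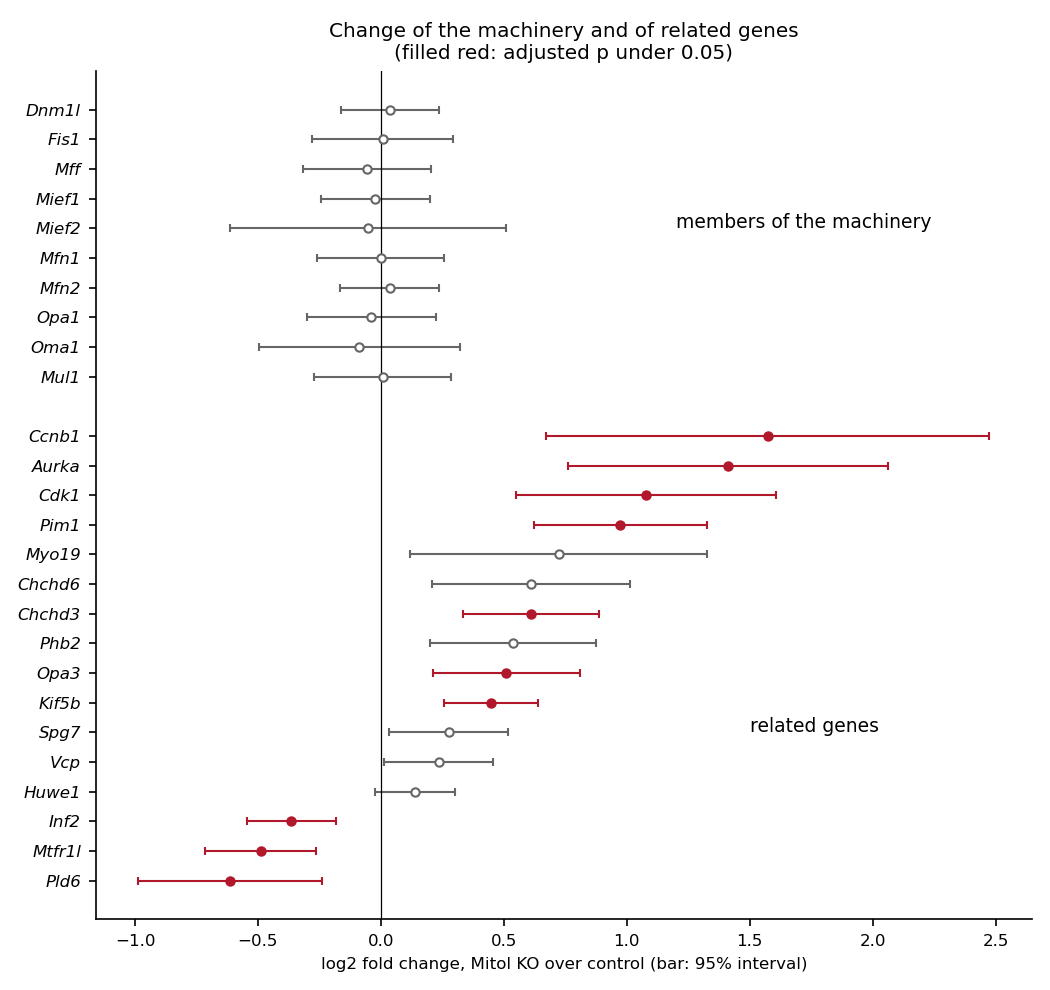
Log2 fold change of Mitol KO over control (x axis) with the 95% interval for the 10 members and, below them, 16 related genes, filled red where the adjusted p was under 0.05. The members' estimates run from -0.088 to 0.036 and every interval crosses 0, whereas 10 of the related genes passed, from Pld6 at -0.61 to Ccnb1 at 1.57.

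**Figure D4:**
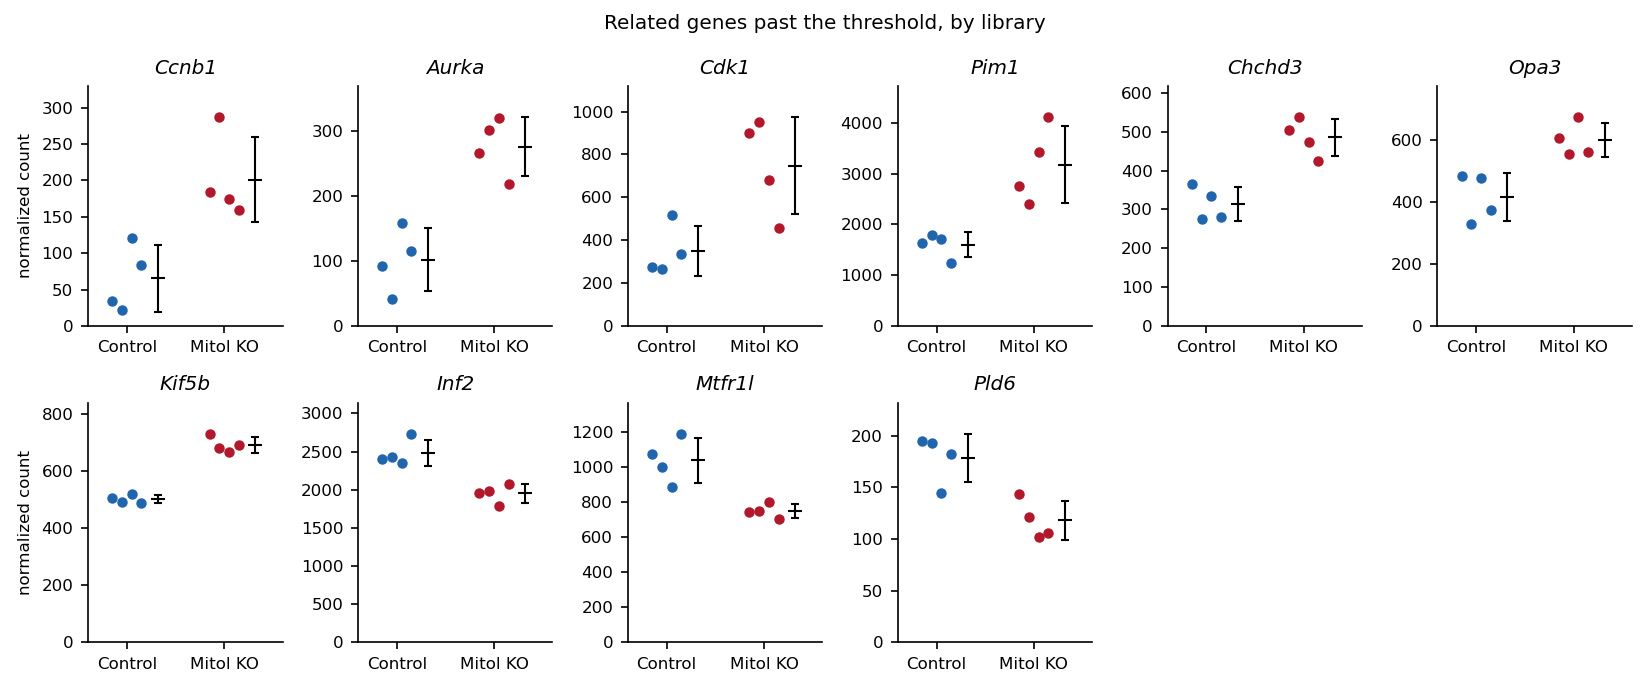
Normalized counts (y axis from 0) of the 10 related genes that passed the test in 4 control (blue) and 4 Mitol KO (red) libraries, with the mean and SD of each group in black. Pim1 ranges from 2400 to 4111 in Mitol KO and from 1244 to 1796 in control libraries, and the groups overlap for Cdk1.

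By the root mean square difference of centred log2 CPM over the 8 libraries, the genes whose pattern was most like that of Oma1 were Gvin3 at 0.108, Gm9929 at 0.117 and Mrps21 at 0.118, where the median over all genes tested was 0.379. Oma1 was used as the member with the largest absolute log2 fold change. It did not pass the test between the groups. The smallest of all distances lie below the median by construction, so this likeness carries no test.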

How the data were processed

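Per the labels and the study's methods, the authors sorted 100 HSCs per library, aligned reads with STAR to mm39, used SAMtools, and obtained gene counts with Subread. The deposited counts are raw. The annotation and strand setting of the counting are not given in the sources used here. The table held 23094 rows. The 1029 rows with no symbol (0.335% to 0.467% of a library's counts) were left out.

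All 22065 named genes entered filterByExpr, which kept 16444. These were fitted with edgeR (4.0.16, TMM, quasi-likelihood, group as the sole term, Benjamini-Hochberg over all genes tested, threshold 0.05). SEs and 95% intervals came from that fit. Normalized counts are counts divided by DESeq2 (1.42.0) size factors. Log2 CPM used a prior count of 2. Positions and lengths came from GENCODE vM39 on GRCm39. Single values were compared with exact 2-sided permutation tests. The fits were tested on simulated data.

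The text names all members, Marchf5, each related gene past the threshold, the 2 lowest p where a list had fewer than 2 such genes, and the 3 genes most like one member. Members and lists were chosen with earlier results of these data known. Alternatives were other scalings, filters, DESeq2, limma-voom (3.58.1), a replicate block, a threshold of 0.1, another length and leaving out each library. No 2 libraries of a group agreed within counting noise. Protein sequences were not used here, and some genes of the lists are not reported here and were left out of list counts and sums.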

Additional observations from a re-analysis of the deposited data

Results flagged for a closer look

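In 3 of the 58 groups of 4 libraries examined, those of the 10 members, of the 16 related genes named in the text and of the 3 ratios, 1 library lay further from the rest than Dixon's 95% limit for 4 values (its gap to the nearest library as a share of the range), and chance gives about 1 in 20 groups. For Dnm1l, Mitol KO replicate 4 was low at 583.0 normalized counts, with the nearest library at 660.9 (0.863 of the range). For Mfn1, control replicate 1 was low at 311.2, with the nearest at 365.5 (0.858 of the range). For Huwe1, which encodes a ligase known to act on MFN2, control replicate 4 was low at 10420.0, with the nearest at 11790.0 (0.864 of the range). Without that library, none of Dnm1l, Mfn1 and Huwe1 passed the test either.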

How the results depend on the processing

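In every alternative fit and with each library left out, 0 of the 10 members passed, also at an adjusted p under 0.1. The lowest adjusted p was 0.437 (edgeR, Mief2, with a library left out). Point estimates near 0 changed sign. Mfn1 was 0.0097 with the DESeq2 size factors, 0.021 without a filter, 0.00093 with a stricter filter and 0.014 with DESeq2, and Mief1 was 0.00088 without a filter. With upper quartile factors Dnm1l, Fis1, Mfn2 and Mul1 were -0.027, -0.053, -0.027 and -0.053, and with library totals -0.020, -0.046, -0.020 and -0.048. Mief2 and Mul1 were 0.042 and -0.0059 with limma-voom and 0.0033 and -0.0025 with the replicate block. With a library left out, log2 fold changes ran from -0.049 to 0.105 (Fis1), -0.139 to 0.010 (Mff), -0.047 to 0.058 (Mfn1), -0.015 to 0.087 (Mfn2), -0.077 to 0.054 (Mief1), -0.27 to 0.156 (Mief2), -0.088 to 0.082 (Mul1), -0.198 to 0.014 (Oma1) and -0.103 to 0.058 (Opa1), while Dnm1l stayed above 0 (0.018 to 0.102).

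Of all genes, 1386 passed (770 higher, 616 lower), 2315 with DESeq2, 2585 at a threshold of 0.1, and 359 (without control replicate 2) to 2501 (without Mitol KO replicate 4) with a library left out. Scaling turned the split, to 594 higher and 845 lower with upper quartile factors and 602 and 829 with library totals, where the median of all genes was -0.082 and -0.075. Related genes past the threshold numbered 2 to 17 with a library left out. The replicate block gave 1652 calls. Same-numbered libraries correlated at 0.080, -0.070, 0.053 and 0.067, and numbers 1 and 3 matched their own best. The labels do not say what a number marks, and these values cannot show whether same-numbered libraries shared a litter or day. The causes were not tested. Mief2 had the fewest counts of the members and the widest spread, and its lowest estimate, -0.27, was without control replicate 3.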
